A study of Rattus norvegicus with 31 samples.

Results

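Genes that mark lymphocytes and natural killer (NK) cells were followed in the livers of female Wistar rats (Crl:WI) that had been dosed by oral gavage for 28 days. The 8 genes were Ptprc, Cd3e, Cd3g, Cd4, Cd8a, Nkg7, Prf1 and Cd79b, taken by symbol. All 8 were among the 26312 genes of the count table, and all 8 were among the 19904 genes tested. Young adult rats received thiacloprid (THI, 108 mg/kg bw/day, 4 rats), imazalil (IMZ, 93 mg/kg bw/day, 4 rats) or clothianidin (CTD, 288 mg/kg bw/day, 3 rats). Binary mixtures were given to 4 rats per combination, as THI + IMZ (54 and 46 mg/kg bw/day), THI + CTD (54 and 134 mg/kg bw/day) and IMZ + CTD (46 and 135 mg/kg bw/day). The 8 rats of the Control group were given the vehicle, aqueous carboxymethyl-cellulose, which all groups received. THI and CTD are neonicotinoid insecticides and IMZ is an azole fungicide. Each library was made from total RNA of 1 rat liver.

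The liver holds resident and passing lymphocytes and is known for its many NK cells and T cells, which lie in the sinusoids beside the Kupffer cells, the macrophages of the liver. T cells recognise antigen through a receptor that signals through the CD3 chains and is assisted by the co-receptors CD4 or CD8. Killer T cells and NK cells store perforin and other granule proteins, and B cells signal through a receptor that holds CD79 chains. Ptprc encodes CD45, a phosphatase on the surface of nucleated blood cells in general, and in rats CD4 is also carried by monocytes and macrophages. So Ptprc and Cd4 do not mark lymphocytes alone.

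The medians of these 8 genes were lowest in the mixtures that held CTD, and in THI + CTD 1 gene, Cd4, fell. In THI + CTD 7 of the 8 genes had a log2 fold change below 0, with a median of -0.62, and in IMZ + CTD all 8 did, with a median of -0.48. Cd3e, Cd3g and Cd79b had 0 to 7 counts per rat in THI + CTD and 0 to 3 in IMZ + CTD. The directions of these genes thus rest on few counts. The medians over all genes tested were -0.03 in both comparisons. In THI, IMZ, CTD and THI + IMZ the medians of the 8 genes were -0.12, -0.06, -0.14 and -0.29, with 5, 4, 4 and 7 genes below 0. No gene of the 8 passed the test in a treatment other than THI + CTD.

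A differentially expressed gene (DEG) had a Benjamini-Hochberg adjusted p under 0.05 in the quasi-likelihood test of edgeR, with p-values adjusted over all genes tested. Levels are given as CPM, counts divided by the library size in M reads after TMM scaling. The libraries held 31.8 M to 101 M counted reads (median 41 M), and the deepest were Control libraries. Ptprc and Cd4 were counted with 253 to 841 and 411 to 1637 reads per library. Prf1 had 15 to 116 reads per library, Cd8a 3 to 38, Nkg7 2 to 41, Cd79b 0 to 28, Cd3e 0 to 14 and Cd3g 0 to 8. A level of 3 counts, taken as the floor of a library, was 0.0289 to 0.0963 CPM, and this floor covers counting error only. In whole liver RNA, fewer cells of a type and less RNA per cell cannot be told apart. Levels were compared between rats and not between genes, as gene lengths were not used here.

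**Figure D1:**
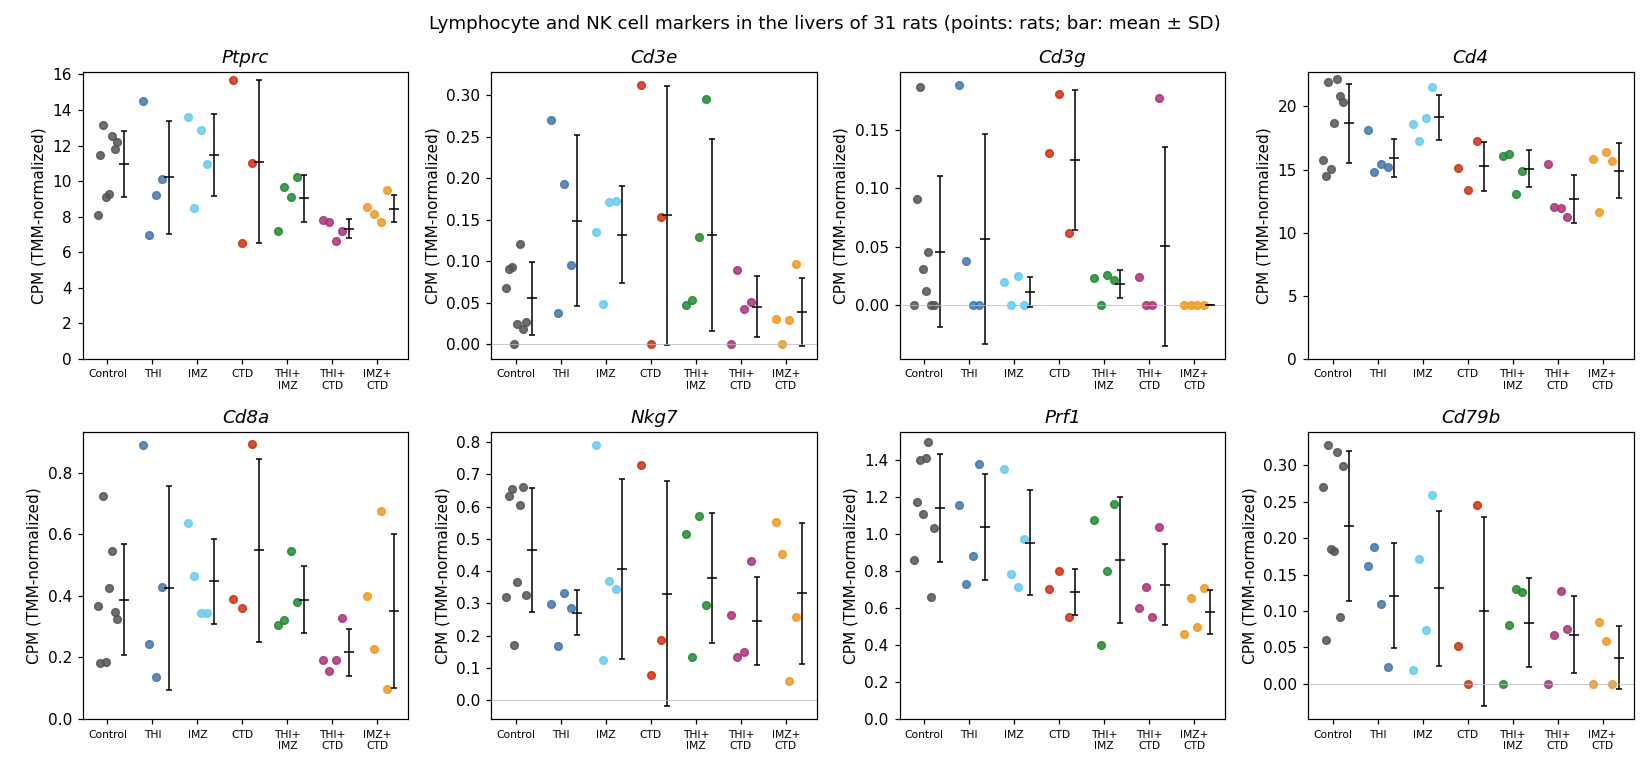
CPM (y axis, linear, TMM-scaled) of the 8 genes in each of 31 rats, with 1 point per rat, groups along the x axis and the bar showing mean ± SD. The 4 THI + CTD rats lie below all 8 Control rats for Ptprc, between 6.62 and 7.81 CPM. In every other pairing of gene and treatment the rats overlap with Control.

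Ptprc (ENSRNOG00000000655), the general leukocyte gene, was measured at 8.11 CPM in the lowest Control rat, at a median of 11.6 CPM and at 13.2 CPM in the highest. The 4 THI + CTD rats had 7.81, 7.72, 6.62 and 7.16 CPM, and the 4 IMZ + CTD rats had 8.52, 8.12, 7.70 and 9.47 CPM. All THI + CTD rats were below all Control rats, and all IMZ + CTD rats were below the Control median. In all, 363 of the genes tested (1.82%) had every THI + CTD rat below every Control rat, and Ptprc was the 1 of the 8 genes that did. The Ptprc mean was 10.96 ± 1.86 CPM (SD, n = 8) in Control and 7.33 ± 0.549 CPM (SD, n = 4) in THI + CTD. The log2 fold change was -0.58 ± 0.18 (SE) in THI + CTD, and it missed the threshold of edgeR (adjusted p = 0.0626). It passed with 2 of 8 other settings and in 6 of the 31 fits that left out 1 rat each, in which the adjusted p ranged from 0.0285 to 0.195. In IMZ + CTD the log2 fold change of Ptprc was -0.37 ± 0.18 (SE, edgeR adjusted p = 0.382).

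The same gene varied most among rats given a single compound. Ptprc levels were 14.5, 6.96, 9.21 and 10.1 CPM in the THI rats, 13.6, 8.46, 12.9 and 10.96 CPM in the IMZ rats, and 15.7, 6.54 and 11.04 CPM in the CTD rats. Each of these groups held a rat above the highest Control rat, and THI and CTD also held one below the lowest. The CTD rats thus ranged both lower and higher than the Control rats, and the log2 fold change of the CTD group was 0.02 ± 0.19 (SE, edgeR adjusted p = 0.986). The THI + IMZ rats had 7.17, 9.64, 9.12 and 10.2 CPM, all below the Control median.

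Cd4 (ENSRNOG00000016294), the co-receptor of helper T cells, which rat monocytes and macrophages also express, was the DEG among the 8 genes. In Control its lowest, median and highest levels were 14.5, 19.5 and 22.2 CPM. The THI + CTD rats had 15.4, 12.0, 12.0 and 11.2 CPM, so 3 of 4 were below all Control rats and the other overlapped with the lower Control rats. The log2 fold change was -0.56 ± 0.12 (SE), with an adjusted p of 0.00469 in edgeR, and 873 genes (4.39% of those tested) were DEGs in this comparison. The test was passed in all 31 fits that left out 1 rat each, with log2 fold changes from -0.67 to -0.51, and with 7 of 8 other settings. It was not passed when the replicate number entered as a block (log2 fold change -0.40, adjusted p = 0.099). Replicate numbers 5 to 8 occur only in Control, so that fit drew on Control replicates 1 to 4 for this contrast. Those rats had 15.8, 14.5, 21.9 and 15.0 CPM of Cd4. Control replicates 5 to 8 had 18.7, 22.2, 20.8 and 20.4 CPM.

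Cd4 was also below the Control median in every rat of THI, CTD, THI + IMZ and IMZ + CTD. The levels were 18.2, 14.8, 15.4 and 15.2 CPM in THI, 15.1, 13.4 and 17.3 CPM in CTD, 16.1, 16.2, 13.1 and 14.9 CPM in THI + IMZ, and 15.8, 11.7, 16.4 and 15.7 CPM in IMZ + CTD. Of these 15 rats, 12 lay inside the Control range and 3 lay below it, 1 each in CTD, THI + IMZ and IMZ + CTD, the last of them, at 11.7 CPM, below 3 of the 4 THI + CTD rats. The log2 fold changes of Cd4 in these 4 groups were -0.23 ± 0.12, -0.29 ± 0.13, -0.31 ± 0.12 and -0.33 ± 0.12 (SE), with edgeR adjusted p-values of 0.589, 0.156, 0.273 and 0.197. In IMZ the Cd4 levels of 18.6, 17.3, 19.1 and 21.5 CPM lay inside the Control range, with a log2 fold change of 0.04 ± 0.12 (SE).

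The log2 ratio of Cd4 to Ptprc within a rat, which is not corrected for gene length, was 0.77 ± 0.20 (SD, n = 8) in Control, 0.78 ± 0.17 (SD, n = 4) in THI + CTD and 0.81 ± 0.24 (SD, n = 4) in IMZ + CTD. The ranges of Cd4 to Ptprc overlapped, from 0.34 to 1.01 in Control, 0.64 to 0.98 in THI + CTD and 0.52 to 1.09 in IMZ + CTD. CTD had the widest spread, from -0.05 to 1.03.

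Prf1 (ENSRNOG00000000562) encodes perforin, which opens pores in target cells. Its lowest, median and highest Control levels were 0.660, 1.14 and 1.50 CPM. The IMZ + CTD rats had 0.461, 0.653, 0.500 and 0.706 CPM, and 3 of 4 were below all Control rats. The CTD rats had 0.702, 0.801 and 0.554 CPM, and the THI + CTD rats 0.602, 0.714, 0.554 and 1.04 CPM, all below the Control median of Prf1. The log2 fold changes were -0.98 ± 0.28 in IMZ + CTD, -0.73 ± 0.31 in CTD and -0.66 ± 0.27 in THI + CTD (SE), with edgeR adjusted p-values of 0.0795, 0.124 and 0.185. In THI, IMZ and THI + IMZ, Prf1 levels ran from 0.403 to 1.38 CPM, with log2 fold changes from -0.40 to -0.14.

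Nkg7 (ENSRNOG00000017749), a granule membrane protein gene of NK cells and killer T cells, had Control levels from 0.170 to 0.660 CPM with a median of 0.485 CPM. The THI rats had 0.296, 0.169, 0.331 and 0.286 CPM and the THI + CTD rats 0.265, 0.134, 0.149 and 0.430 CPM. All 8 of these rats were below the Control median. In THI 1 rat and in THI + CTD 2 rats were below all Control rats, and the others overlapped with the lower Control rats. The log2 fold changes of Nkg7 were -0.78 ± 0.53 in THI and -0.92 ± 0.54 in THI + CTD (SE), with edgeR adjusted p-values of 0.707 and 0.387. In CTD, Nkg7 spread from 0.0775 to 0.728 CPM over 3 rats, wider than the 8 Control rats.

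Cd8a (ENSRNOG00000007178), a chain of the co-receptor of killer T cells, ran from 0.181 to 0.725 CPM in Control, with a median of 0.357 CPM. The THI + CTD rats had 0.193, 0.156, 0.192 and 0.329 CPM, all below that median and 1 below all Control rats. The log2 fold change of Cd8a was -0.84 ± 0.46 (SE, edgeR adjusted p = 0.356). The other 5 groups had log2 fold changes from -0.15 to 0.48, and THI and CTD each held 1 rat above all Control rats, at 0.889 and 0.892 CPM.

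Cd79b (ENSRNOG00000011917), a signalling chain of the B cell receptor, had its lowest, median and highest Control levels at 0.0603, 0.228 and 0.328 CPM, from 2 to 28 counts per rat. In IMZ + CTD the 4 rats had 0, 3, 2 and 0 counts of Cd79b, or 0, 0.0852, 0.0588 and 0 CPM, and 3 of 4 were below all Control rats. The THI + CTD rats had 0, 3, 6 and 3 counts. The fitted log2 fold change was below 0 in all 6 treatments, from -2.47 ± 0.90 (SE, edgeR adjusted p = 0.201) in IMZ + CTD to -0.73 ± 0.72 (SE) in IMZ. No treatment passed the test for Cd79b.

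The genes of the T cell receptor's CD3 chains were near the floor. Cd3e (ENSRNOG00000016069) had 0 to 8 counts in the Control rats. It had 10, 2, 7 and 4 counts in THI, 7, 2, 7 and 8 in IMZ, 12, 0 and 5 in CTD, and 2, 2, 5 and 14 in THI + IMZ. Of these 15 rats, 9 had a higher Cd3e CPM than any Control rat. The THI + CTD rats had 0, 4, 2 and 2 counts of Cd3e, and the IMZ + CTD rats 1, 0, 1 and 3. So the 2 mixtures with CTD lay within the Control range, while the other 4 treatments reached above it. The log2 fold changes of Cd3e were 1.38 ± 0.76, 1.24 ± 0.75, 1.47 ± 0.83 and 1.25 ± 0.76 (SE) in THI, IMZ, CTD and THI + IMZ, with edgeR adjusted p-values of 0.634, 0.722, 0.278 and 0.577. They were -0.23 ± 0.86 and -0.48 ± 0.94 (SE) in THI + CTD and IMZ + CTD.

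Cd3g (ENSRNOG00000015945), another CD3 chain gene, was at 0 counts in 14 of 31 rats and reached 8 counts. It was at 0 in all 4 IMZ + CTD rats and in 3 of 8 Control rats. The 8 Control rats held 17 counts of Cd3g in all, of which 8 came from Control replicate 3, so no fold change is given for IMZ + CTD, whose edgeR adjusted p was 0.353. The CTD rats had 5, 7 and 2 counts of Cd3g, inside the Control range in CPM.

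**Figure D2:**
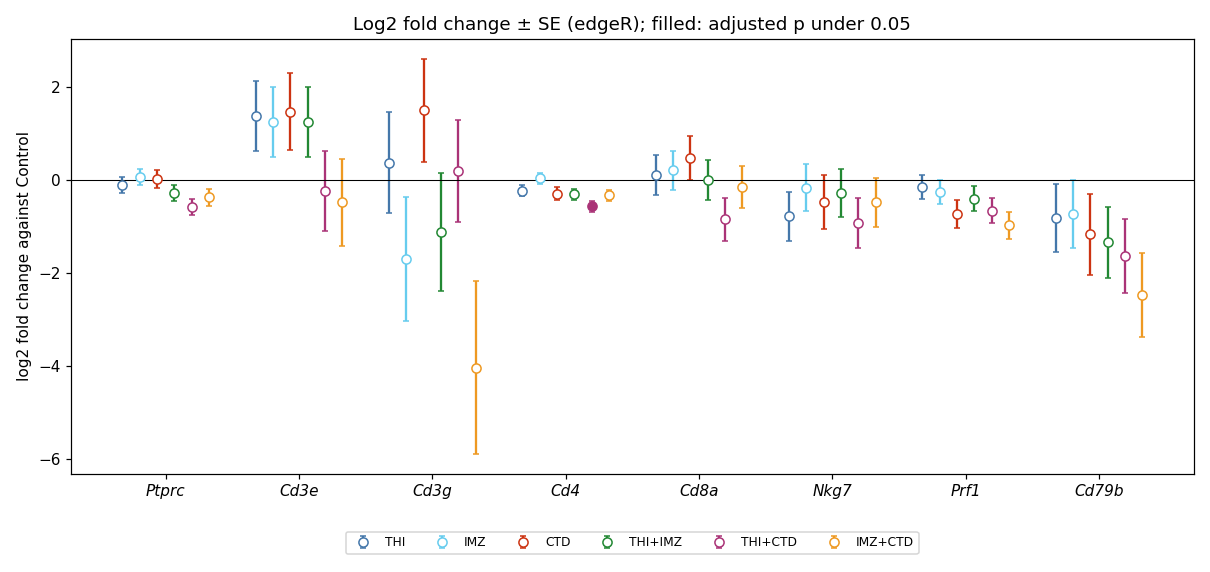
Log2 fold change against Control (y axis) with its SE for the 8 genes (x axis) in the 6 treatments, where a filled point has an adjusted p under 0.05. Cd4 in THI + CTD, at -0.56, is the filled point, and the SE widens from Cd4 and Ptprc to Cd3g, the gene with the fewest counts.

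The 8 genes were then read against the share of DEGs in each comparison. Against Control, 0.543% of all genes tested were DEGs in THI, 0.251% in IMZ, 12.7% in CTD, 1.18% in THI + IMZ and 1.46% in IMZ + CTD, and 0 of the 8 genes were in each. In CTD, where the share was highest, 2 of the 8 genes, Cd4 and Prf1, had an unadjusted p under 0.05 in edgeR. That count was 0 in THI and IMZ, 1 in THI + IMZ, 4 in THI + CTD and 5 in IMZ + CTD. With DESeq2, 2 of the 8 genes passed in THI + CTD and 1 in IMZ + CTD, and 0 in the other 4 treatments. The shares above are those of edgeR, and the shares over all genes with DESeq2 are not given here. When any difference among the 7 groups was tested, 9.51% of all genes passed, and of the 8 genes Cd4 did (adjusted p = 0.0127), ahead of Prf1 (0.126) and Ptprc (0.146).

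For each mixture a dose-weighted sum was formed from its 2 compounds, which adds the single log2 fold changes weighted by the part of each dose (0.5 for THI and IMZ, 0.47 for CTD). In THI + CTD, Ptprc differed from that sum by -0.54 ± 0.18 (SE), Cd4 by -0.31 ± 0.12 and Cd8a by -1.12 ± 0.48 on the log2 scale, with edgeR adjusted p-values of 0.293, 0.389 and 0.438. In IMZ + CTD the difference of Ptprc was -0.42 ± 0.18 (SE, adjusted p = 0.284). These 4 differences had an unadjusted p under 0.05, and none of the 8 genes passed after adjustment in edgeR. Of all genes tested, 0.0151% passed in THI + IMZ, 0.286% in THI + CTD and 1.16% in IMZ + CTD.

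Further markers of the same cells were read from fixed lists that hold none of the 8 genes. Of 22 T cell genes tested, 1 fell in THI + CTD and in CTD, near or below the 4.39% and 12.7% of all genes that were DEGs there. This was Zap70, a kinase that the CD3 chains recruit, with log2 fold changes of -3.53 ± 0.83 and -3.14 ± 0.93 (SE, edgeR adjusted p = 0.0103 and 0.0218). Zap70 spread widely in Control, from 0.277 to 11.2 CPM, against 0.170 to 0.446 CPM in THI + CTD, so the groups overlapped, and Zap70 was not refitted without single rats. The T cell list had a median log2 fold change of -0.28 in THI + CTD and -0.34 in IMZ + CTD, with 16 and 13 of 22 genes below 0, and of 0.31 in IMZ, with 5 of 22 below 0. In THI, CTD and THI + IMZ it was 0.07, 0.04 and 0.05.

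Of 22 NK and cytotoxic genes tested, Klrg1 fell in THI + CTD, and Klrb1b fell in CTD, again 1 gene each and near or below the shares of 4.39% and 12.7% over all genes. Klrg1, an inhibitory receptor of NK cells and antigen-experienced T cells, had 4.91 to 5.66 CPM in THI + CTD against 6.52 to 14.4 CPM in Control, with no overlap (log2 fold change -1.14 ± 0.27, SE, edgeR adjusted p = 0.0116). Over all genes tested, 1.82% had every THI + CTD rat below every Control rat. In IMZ + CTD the Klrg1 log2 fold change was -0.06 ± 0.26 (SE), while that of Prf1 was -0.98. Klrb1b, an NK cell receptor, had 0 to 1 count in the CTD rats and 2 to 15 in the Control rats, whose libraries differed in depth. In CPM this was 0 to 0.03076 in CTD and 0.03082 to 0.145 in Control. The highest CTD rat was thus close to the lowest Control rat, and the CTD rats lay under the floor of 3 counts. The list's median was -0.63 in THI + CTD, -0.49 in CTD and -0.46 in IMZ + CTD, with 19, 14 and 16 of 22 genes below 0. In THI, IMZ and THI + IMZ it was -0.08, 0.14 and -0.15.

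Of 16 B and plasma cell genes tested, 1 fell in THI + CTD and in CTD, where 4.39% and 12.7% of all genes were DEGs, so this count too was near or below that share. This was Cd22, an inhibitory co-receptor of B cells, at 5.04 to 7.85 CPM in THI + CTD and 5.14 to 7.97 CPM in CTD. Control had 9.48 to 15.5 CPM, with no overlap. Such a lack of overlap was seen for 1.82% of all genes tested in THI + CTD, and that share is not given here for CTD. The Cd22 log2 fold changes were -1.03 ± 0.19 and -0.99 ± 0.22 (SE, edgeR adjusted p = 0.00167 and 0.00213), and in IMZ + CTD it was -0.37 ± 0.19 (SE, adjusted p = 0.410). The B and plasma cell list had medians of -0.62 in THI, 0.03 in IMZ, -0.59 in CTD, -0.21 in THI + IMZ, -0.66 in THI + CTD and -0.81 in IMZ + CTD, with 12, 8, 11, 13, 13 and 12 of 16 genes below 0. The low medians were thus not limited to groups that received CTD. The fitted log2 fold changes of Cd79b were -0.82, -0.73, -1.16, -1.34, -1.63 and -2.47 in the same order.

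Of 19 genes shared by leukocytes, all 19 were below 0 in THI + CTD and in THI + IMZ, with medians of -0.39 and -0.24, and 16 of 19 in IMZ + CTD, with a median of -0.32. The medians in THI, IMZ and CTD were -0.12, 0.07 and -0.19. DEGs of this list numbered 1 in THI + CTD and 2 in CTD, near or below the share over all genes. Itgb2, the beta chain of the leukocyte integrins, fell in THI + CTD and in CTD (log2 fold changes -0.53 ± 0.13 and -0.46 ± 0.14, SE, edgeR adjusted p = 0.0108 and 0.0267). Laptm5, a lysosomal protein gene of blood cells, fell in CTD (-0.52 ± 0.14, SE, adjusted p = 0.014). In CTD, Ptprc stood at 0.02 on the same scale.

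**Figure D3:**
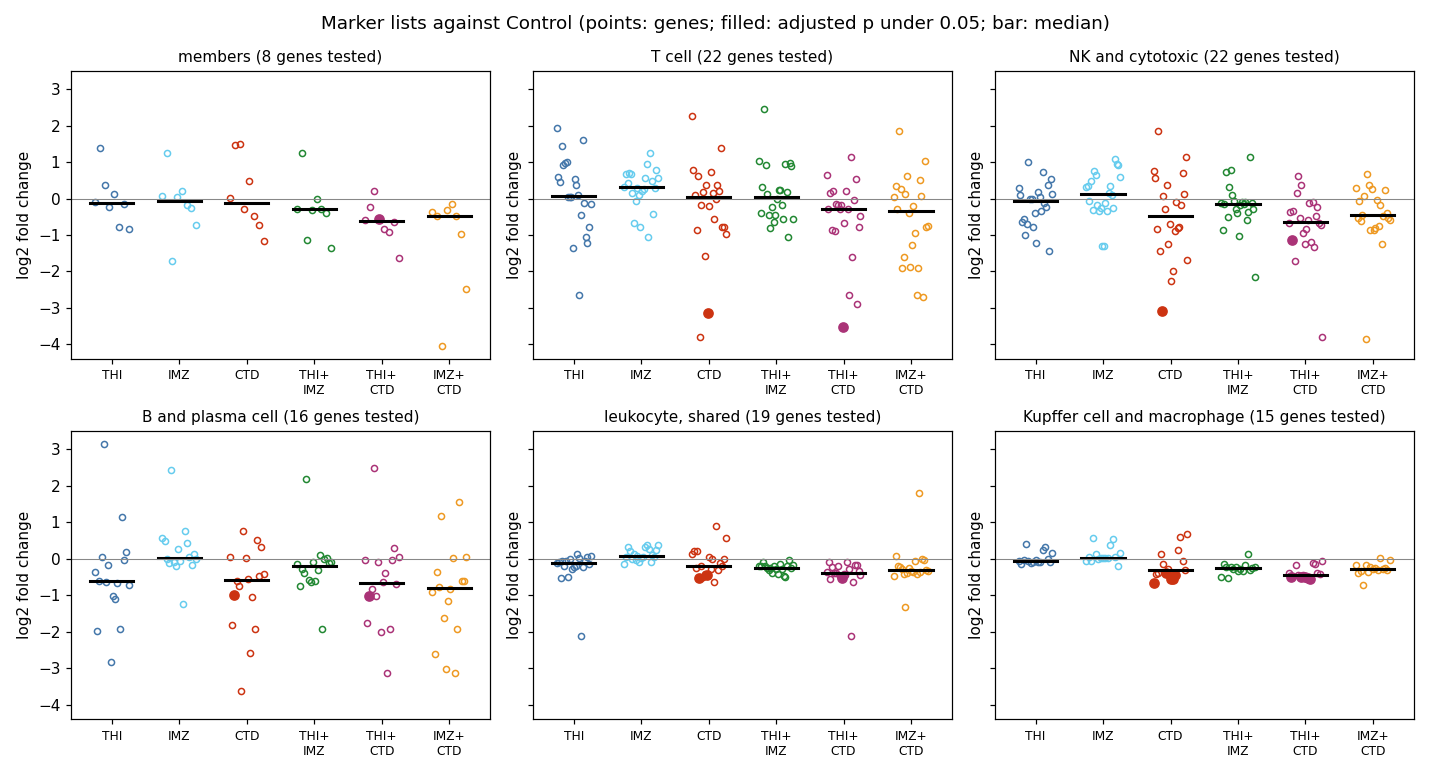
Log2 fold change against Control (y axis) of each gene in 6 marker lists, with the treatments on the x axis, filled points at an adjusted p under 0.05 and a bar at the median. The medians in THI + CTD lie below 0 in all 6 panels, from -0.66 for B and plasma cell genes to -0.28 for T cell genes.

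Markers of Kupffer cells and macrophages were lower in THI + CTD, as Cd4 was. All 15 genes of that list were below 0 in THI + CTD, with a median of -0.45, and 5 fell (Cd163, Csf1r, C1qa, C1qb and C1qc), where 4.39% of all genes were DEGs. In CTD, where 12.7% of all genes were DEGs, 5 fell (Cd68, Csf1r, C1qa, C1qb and C1qc), with a median of -0.32, while Ptprc was at 0.02. In IMZ + CTD, where that share was 1.46%, 0 of the 15 genes were DEGs in edgeR and 14 were below 0. Of the 15, 5 had an unadjusted p under 0.05 in edgeR, and the median was -0.29. In THI, IMZ and THI + IMZ the medians were -0.06, 0.02 and -0.24. C1qc, a chain of the first complement component, had 48.5 to 61.6 CPM in THI + CTD against 65.6 to 102 CPM in Control (log2 fold change -0.57 ± 0.12, SE, edgeR adjusted p = 0.00338). The summed level of the list was 519 to 679 CPM in THI + CTD, 477 to 795 CPM in IMZ + CTD, 493 to 750 CPM in CTD and 615 to 992 CPM in Control. No gene of the list was at 0 in a whole group. The part of macrophages in the Cd4 and Ptprc values was not tested.

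Other cell types were checked by the summed levels of their lists. Hepatocyte genes summed to 157296 to 213885 CPM in Control and 136682 to 177372 CPM in THI + CTD. Most of that sum was Alb, with a mean of 138079 CPM of the 177039 CPM in Control. Sinusoidal endothelial genes summed to 373 to 463 CPM in Control and 328 to 398 CPM in THI + CTD, and stellate cell and fibroblast genes to 327 to 527 and 401 to 552 CPM. Col3a1 made up much of the stellate cell and fibroblast sum, with a mean of 252 CPM of the 433 CPM in Control. Red blood cell genes summed to 27.7 to 68.0 CPM in Control and 157 to 188 CPM in CTD, a group in which Ptprc and Cd3e spread widely. Neutrophil genes summed to 0.353 to 1.21 CPM in Control, and 0 of 10 were DEGs in any treatment in edgeR, with 0 to 2 at an unadjusted p under 0.05. The share of DEGs over all genes ran from 0.251% in IMZ to 12.7% in CTD. Genes of cell division summed to 7.42 to 18.98 CPM in Control, 19.4 to 56.0 CPM in THI + CTD and 50.6 to 181 CPM in CTD. In THI + CTD 4.39% of all genes tested were DEGs. In that mixture Asgr1, Serpina1 and Tat fell among 10 hepatocyte genes, and Kdr fell among 10 endothelial genes. Reln and Colec11 fell and Col1a1 rose among 10 stellate and fibroblast genes. Hbb rose among 7 red blood cell genes, and 9 of 10 genes of cell division rose. The part of these cell types in the lymphocyte marker values was not tested.

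Among 18 genes of lymphocyte recruitment and cytokines, 1 rose in IMZ, CTD, THI + IMZ and THI + CTD. Over all genes tested, 0.251%, 12.7%, 1.18% and 4.39% were DEGs in these comparisons. Cxcl9, a chemokine that draws activated T cells and NK cells, had a log2 fold change of 1.03 ± 0.21 in IMZ, 1.09 ± 0.23 in CTD, 0.91 ± 0.22 in THI + IMZ and 1.08 ± 0.21 in THI + CTD (SE, edgeR adjusted p = 0.0224, 0.00162, 0.0253 and 0.00246). Its levels were 4.95 to 9.64 CPM in Control and 9.80 to 18.4 CPM in THI + CTD, with no overlap. The share of all genes with every THI + CTD rat above every Control rat is not given here. In THI + CTD, Cxcl9 was higher while Cd4 was lower. Cxcl9 was not a DEG in THI and IMZ + CTD, where its means were 11.1 and 11.2 CPM against 6.83 CPM in Control.

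Variation among rats of the same group was then examined with log2 CPM centred on group means. Of 28 pairs among the 8 genes, 23 had a correlation above 0 over 31 rats, and 1 passed after adjustment over the 28 pairs. This was Ptprc with Cd3e (Pearson r = 0.71, permutation p = 0.00062, adjusted p = 0.0174, Spearman rho = 0.65, permutation p = 0.00086, adjusted p = 0.0241). Without the 2 rats farthest from the median of Ptprc r was 0.58, and within the 8 Control rats r was 0.41. Cd3e rests on 0 to 14 counts per rat. The next pairs were Ptprc with Nkg7 (r = 0.55, rho = 0.48, permutation p = 0.0047 and 0.014, adjusted p = 0.0652 for r) and Ptprc with Cd4 (r = 0.44, rho = 0.53, permutation p = 0.013 and 0.006, adjusted p = 0.0877 for r), which did not pass. Cd3e and Cd3g, genes of partner chains that lie next to each other with Cd3d on chromosome 8 of the RefSeq GRCr8 annotation, had r = 0.20 and rho = 0.22 (permutation p = 0.32 and 0.29), and Cd4 and Prf1 had r = -0.09 and rho = -0.04 (permutation p = 0.64 and 0.83).

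**Figure D4:**
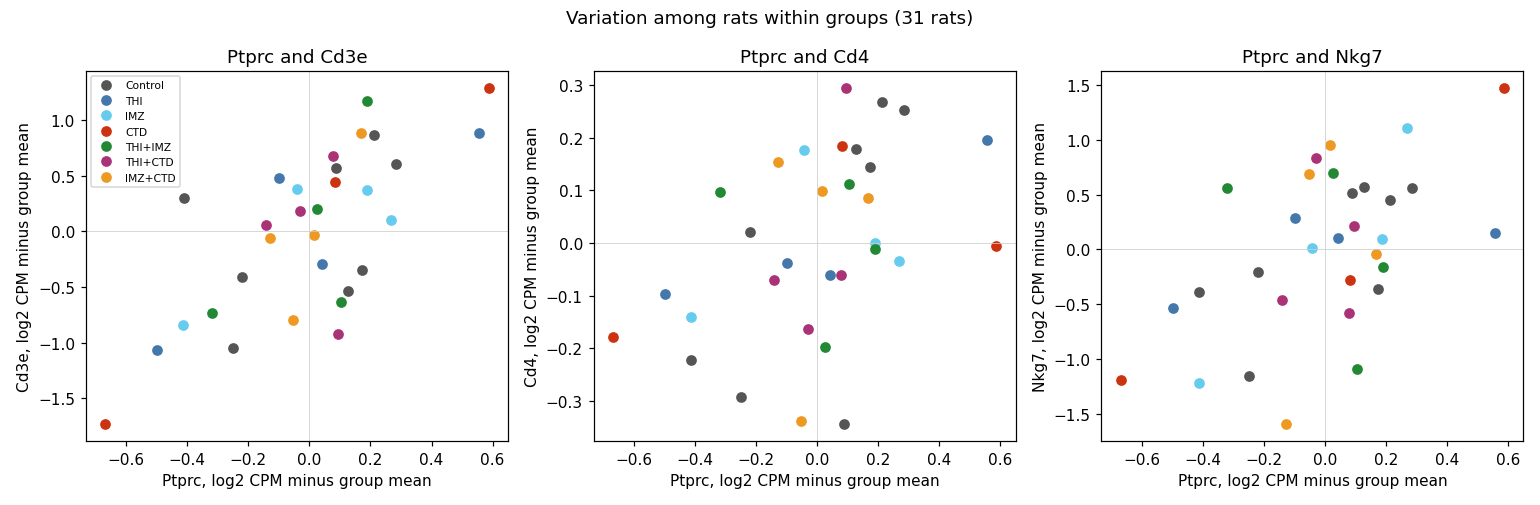
Log2 CPM minus the group mean for Ptprc (x axis) against Cd3e, Cd4 and Nkg7 (y axes), with 1 point per rat coloured by group. Rats with more Ptprc than their group had more Cd3e (r = 0.71), and 2 CTD rats mark both ends of that panel.

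The genes whose pattern over the 31 rats was most like the 8 genes were found with an index, the mean of the standardised log2 CPM of the 8 genes. The index averaged 0.39 in Control and 0.34 in IMZ, and -0.66 in THI + CTD and -0.64 in IMZ + CTD, while THI, CTD and THI + IMZ lay between, at 0.15, 0.14 and -0.07. Among 10874 genes with an average log2 CPM above 0, the 10 with the highest correlation with the index were Rac2 (r = 0.81), Arhgap30 (0.79), Itga4, Wdfy4 and Inpp5d (0.73 each), Itgal and Plcg2 (0.72 each), Csf1r (0.71), Gcnt1 and Ctss (0.70 each). Centred on group means these correlations were 0.50 to 0.73. Rac2 encodes a small GTPase of blood cells, Itga4 and Itgal encode integrin chains with which leukocytes adhere to vessels, and Csf1r encodes the growth factor receptor of macrophages. These are descriptions over 31 rats that share libraries and treatment groups.

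Promoter sequence was read from RefSeq (build GRCr8) for Ptprc, Cd3e, Cd3g, Cd8a, Nkg7 and Prf1, 6 of the 8 genes; Cd4 and Cd79b had no entry. The 250 bases before the start site were searched for AGGAAGT and its reverse complement ACTTCCT, a form of the GGAA element that ETS factors of blood cells read. The motif was chosen after the sequences had been seen. It was in 3 of the 6 promoters and in 7.08% of 33469 promoters in the table. The copies outside the annotated gene are shown with the motif in capitals, each 5′ to 3′ on the strand of the gene. They lie 118 bases before the Ptprc start site (chr13:52259828-52259894, minus strand), 18 bases before that of Cd3e (chr8:54211771-54211818, minus strand), and 203 and 113 bases before that of Prf1 (chr20:29788807-29788873 and chr20:29788897-29788963, plus strand). The Ptprc start site used lies inside the annotated gene, which reaches to chr13:52259810. For Cd3e and Prf1 the distances run from the edge of the annotated gene.
Ptprc: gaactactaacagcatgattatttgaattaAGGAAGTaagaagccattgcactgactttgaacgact
Cd3e: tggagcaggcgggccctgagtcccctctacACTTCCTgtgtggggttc
Prf1: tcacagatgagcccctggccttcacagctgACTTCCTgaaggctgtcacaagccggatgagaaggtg
Prf1: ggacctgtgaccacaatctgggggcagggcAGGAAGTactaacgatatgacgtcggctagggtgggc
A match of letters is a description and not a binding site, and these letters were not found in the windows of Cd3g, Cd8a and Nkg7.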

How the data were processed

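RNA-Seq was made from the livers of 31 rats. The authors prepared stranded total RNA libraries, trimmed adapters, aligned read pairs to the Rnor_5.0 genome and assigned them to genes. The submitters' processing notes name FastQC 0.11.5, STAR 2.5.2b and DESeq2 1.15.1. The deposited table holds raw counts of 26312 Ensembl genes. A second deposited table holds a normalized signal, and its values for the 8 genes matched counts over DESeq2 size factors within a relative deviation of 4.7e-15. Only the counts were tested.

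Genes were kept if their counts summed to 2 or more. edgeR 4.0.16 in R 4.3.3 fitted 1 quasi-likelihood model with a mean per group, and p-values were adjusted over 19904 genes. The SE was derived from the F statistic (log2 fold change over its root). Log2 CPM used a prior count of 2. Correlations were tested by 100000 permutations within groups, two-sided. The code was tested on simulated data. Alternatives were DESeq2 1.42.0 (its Wald test and its size factors), filterByExpr, no filter, a replicate block, counts thinned to the smallest library, only the groups compared, exact dose ratios, a prior count of 0.5, and each rat left out. The newer quasi-likelihood method and the likelihood ratio test of DESeq2 for the 7 groups were tried later, with the data in view.

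The 8 genes and the marker lists were chosen with earlier results of these data known. Named were the 8 genes, per list all DEGs if 3 or fewer and otherwise the 3 with the smallest p over the 7 groups, and the 10 genes most like the index. Where more were DEGs, the text also gives their symbols, and it names C1qc as an example. The genes Il7r, Tcf7, Bcl11b, Themis, Fasl, Cd79a, Jchain, Ighm, Dock2 and Il15 were not analysed here. Adgre1 was matched as Emr1. Overlapping or antisense genes may share reads, as the strand setting of the counting is not given in the sources used here.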

Additional observations from a re-analysis of the deposited data

Results flagged for a closer look

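A rat far from the rest of its group was looked for in 47 groups of 4 to 8 rats, 1 gene and group at a time, with Dixon's test, which chance passes in about 1 of 20 groups. It marked 2. Cd3g in THI + CTD replicate 4 was at 0.177 CPM, from 7 counts, while the other 3 rats had 0 or 1 count. Cd4 in IMZ + CTD replicate 2 was at 11.7 CPM, from 411 counts, while the other 3 rats had 15.7 to 16.4 CPM. The log2 fold changes of both genes with this rat and each other rat left out kept their side of the threshold.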

How the results depend on the processing

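The number of the 8 genes called in THI + CTD was 1 as reported, 2 with the Wald test of DESeq2 and with only the groups compared, 0 with the replicate block, and 1 to 2 when 1 rat was left out. The second gene was Ptprc in each case (adjusted p = 0.0227 with the Wald test and 0.0158 with only the groups compared), and the rats whose removal gave it were Control replicates 1 and 4, THI replicates 1 and 2, and CTD replicates 1 and 2. In IMZ + CTD the count was 0, and 1 with the Wald test (Prf1, adjusted p = 0.0274). The shares of all genes called under these alternatives are not given here. Over the 7 groups it was 1, 0 with the replicate block, and 1 to 2 when 1 rat was left out (Ptprc joined without CTD replicate 2). No direction of a called value was reversed. Same-numbered rats of different groups had a median correlation of 0.023 (from -0.27 to 0.42), and the labels tie the numbers to no shared litter or day, so the rats were taken as unpaired. The counts in the other comparisons stayed at 0 under every alternative run. Of single values, 1856 kept their side of the threshold, 9 passed it in addition and 1, Cd4 in THI + CTD with the block, lost it. Replicate numbers 5 to 8 occur only in Control, so with the block those rats did not add to the contrasts against Control. The causes of these shifts were not tested. Cd3e, Cd3g and Cd79b had 28 counts or fewer in every rat and the widest SEs of the 8 genes.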
